A study of Mus musculus with 9 samples.

Results

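The genes described here encode 9 proteins of the podocyte slit diaphragm and podocyte surface: Nphs1, Kirrel, Cd2ap, Magi2, Podxl, Ptpro, Trpc6, Plce1 and Thsd7a. They were taken by gene symbol from a deposited expression table of 55385 genes, of which 26477 had a count in at least 1 of 9 libraries, and all 9 symbols were found. RNA sequencing was done on a mouse podocyte line, MCP5, which the labels give as wild type in every group. The 3 control libraries carry the treatment label blank, 3 libraries came from cells given high glucose at 50 mmol/L, and 3 came from cells given advanced glycation end products (AGEs, sugar-modified proteins) at 400 µg/mL. Neither the time of exposure nor the glucose level of the control medium is stated in the labels, and no osmotic or carrier protein control was analysed here. Separate cultures are not stated for the numbered libraries of a group, and the p-values therefore reflect only their spread, which may be technical.

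Podocytes are epithelial cells that wrap the glomerular capillaries of the kidney with interdigitating foot processes. The gap between neighbouring foot processes is bridged by the slit diaphragm, a cell junction built on the adhesion proteins nephrin and NEPH1, which are tied through adaptor and scaffold proteins to the actin cytoskeleton. Other proteins of the same cells keep the apical membranes apart, carry calcium or phosphoinositide signals, or are known as targets of autoantibodies in membranous nephropathy.

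Total counts ranged from 46284878 to 77242281 per library, and mitochondrial genes took 2.68% to 4.11% of them. The first principal component of log2 CPM (counts scaled to library size) held 41.0% of the variance and set the high glucose libraries (85.8 to 90.2) apart from the other 6 (-48.9 to -40.4). AGEs library 3 lay alone on the second component, at 82.8. Of 16 podocyte identity markers, Cdkn1c, Lmx1b and Foxc2 had 0 counts in all libraries, Wt1 had 11 counts, all in 1 library, and Tcf21 had 4. The other 11 were tested. With high glucose edgeR called 6 of them higher, 0 lower and 5 not, beside 19.6% of all genes called higher and 19.7% lower. CPM ranges lay above control for 7 of the 11 and below for 1, beside 54.1% of all genes in either direction. Of the 6, Synpo, the actin-associated synaptopodin, went from 22.4 ± 2.45 to 53.4 ± 20.4 CPM (edgeR adjusted p 0.00543). Myo1e, a podocyte myosin, went from 25.0 ± 0.266 to 57.6 ± 3.64 CPM (edgeR adjusted p 9.36e-06). The summed level of this list was 679 to 788 CPM in control, 937 to 1004 in high glucose and 785 to 1009 with AGEs, and Actn4, an actin cross-linker, supplied 446 to 563, 476 to 501 and 530 to 665 CPM of it. Summed tubular markers were 123 to 126 CPM in control, 355 to 396 in high glucose and 121 to 158 with AGEs, with Slc34a1, Umod and Aqp2 at 0. For 8 parietal epithelial markers the sums were 978 to 1023, 1904 to 2146 and 917 to 1132 CPM in the same order, and none of these markers was at 0. Endothelial markers summed to 5.55 to 5.85, 12.4 to 15.1 and 4.25 to 5.16 CPM, mesangial and fibroblast markers to 36.6 to 39.8, 54.7 to 60.2 and 31.2 to 35.8 CPM, and leukocyte markers to 77.7 to 87.1, 133 to 144 and 75.4 to 94.0 CPM. Ren1 was the only marker of these last 3 lists at 0, and the part of any marker list in the results for the 9 genes was not tested.

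The 9 genes spanned the whole range from abundant to absent. On the FPKM scale, which scales fragments to gene length and library size and so allows levels of different genes to be compared, the medians over 9 libraries were 20.4 for Cd2ap, 10.2 for Kirrel, 3.85 for Podxl, 1.59 for Nphs1, 0.215 for Thsd7a, 0.0707 for Magi2 and 0.00584 for Plce1. Trpc6 had 0 counts in all 9 libraries, and Ptpro had 5 counts in all, 4 in control library 1 and 1 in high glucose library 2. The median of Cd2ap was above that of 89.9% of the 26477 genes with a count, that of Kirrel above 81.8%, that of Podxl above 69.0% and that of Nphs1 above 59.8%. Ranges over libraries separated Kirrel from Podxl and Nphs1 from Thsd7a. The other neighbours in this order overlapped: Cd2ap was above Kirrel in 8 of 9 libraries and Podxl above Nphs1 in 5 of 9, while Thsd7a was above Magi2, and Magi2 above Plce1, in 9 of 9. The deposited FPKM implied a gene length close to the union of all annotated exons, retained introns included. For Cd2ap that union was 15864 bases against 5364 for its longest coding transcript, and for Nphs1 6620 against 4608, so their levels relative to Kirrel (7463 against 7278) depend on the gene model.

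**Figure D1:**
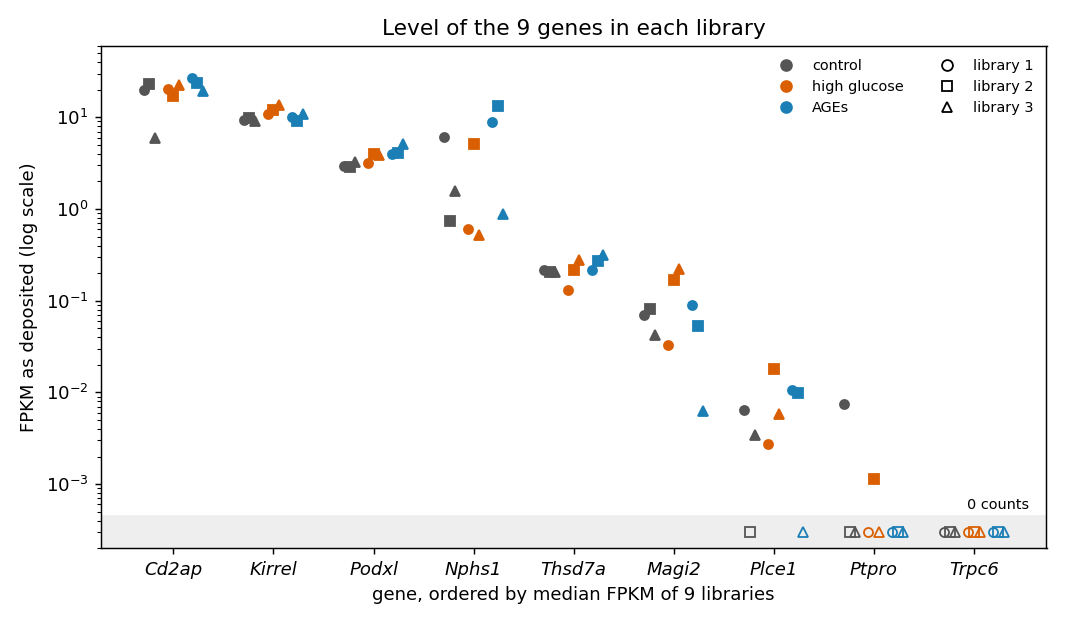
Deposited FPKM (log axis) of the 9 genes in each of the 9 libraries, with colours for the groups and symbols for the library numbers, and values from 0 counts as open symbols in the grey band. Cd2ap and Kirrel are the most abundant at medians of 20.4 and 10.2, Nphs1 libraries are scattered from 0.525 to 13.2 with the groups intermixed, and Trpc6 has no count in any library.

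Of the 9 genes, 7 passed the filter on low counts and were tested. With high glucose against control, edgeR's quasi-likelihood test with Benjamini-Hochberg adjustment over 17680 genes called 0 of these 7 at an adjusted p under 0.05, while 39.3% of all genes tested were called. At an unadjusted p under 0.05 it was also 0 of 7, beside 47.2% of all genes, and DESeq2 called 0. Kirrel was the 1 member whose CPM ranges did not overlap between these groups. That was so for 54.1% of all genes in either direction and for 28.3% in the direction of Kirrel, higher with high glucose. With AGEs against control, edgeR called 0 of 7, where 0.0848% of all genes, 15 in number, were called. Podxl alone of the 7 passed an unadjusted p under 0.05 in that comparison, beside 12.4% of all genes. It alone had CPM ranges that did not overlap, beside 19.2% of all genes, or 9.47% counting only genes higher with AGEs. DESeq2 called 1 of the 7, Podxl, among 325 genes. With AGEs against high glucose, edgeR called 1 of 7, Podxl, where 39.9% of all genes were called, 19.7% as higher with AGEs. Podxl and Cd2ap had ranges that did not overlap, both higher with AGEs, beside 52.5% of all genes in either direction and 25.2% in this one. The median log2 fold change of the 7 genes was 0.13, 0.55 and 0.41 in these comparisons, beside 0.03, -0.00 and -0.02 over all genes tested. Each of these medians was the value of Cd2ap, which was low in control library 3. Without that library the Cd2ap values were -0.26 for high glucose and 0.15 for AGEs against control. The comparisons share libraries, so these values are not independent of each other. In bulk RNA, fewer cells that express a gene and less RNA per cell cannot be told apart.

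**Figure D2:**
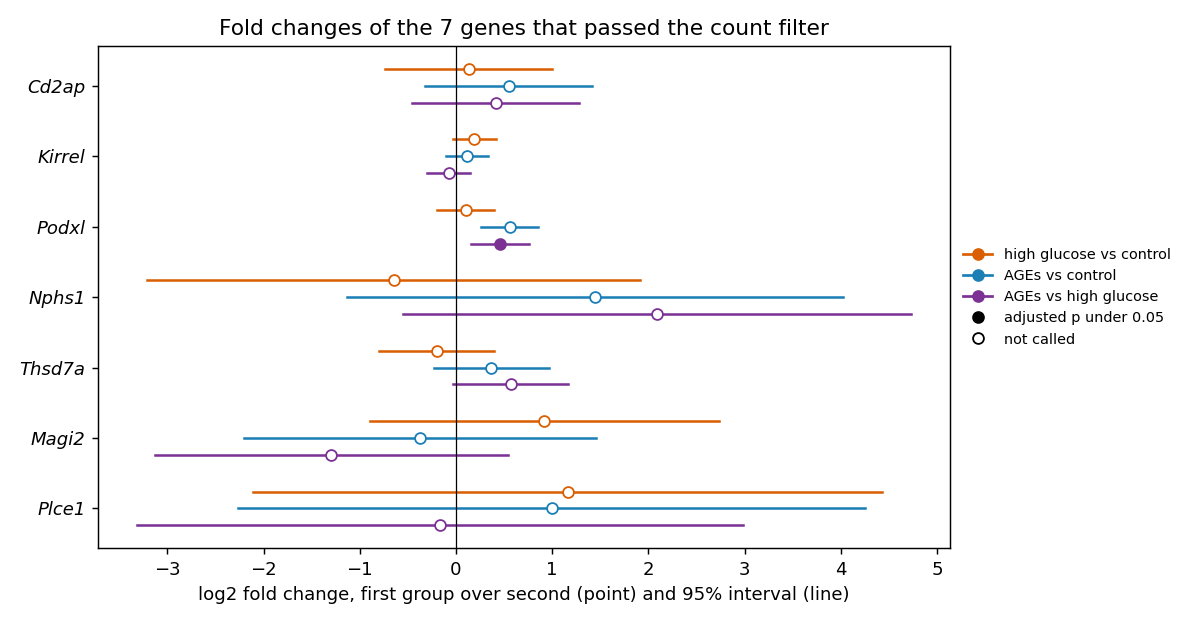
Fitted log2 fold changes of the 7 tested genes in the 3 comparisons, with bars for 95% intervals. The bars of Nphs1, Plce1 and Magi2 are the widest, those of Kirrel and Podxl the narrowest, and Podxl with AGEs lies above 0 against both other groups (0.56 against control and 0.46 against high glucose).

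Nphs1 (ENSMUSG00000006649; GRCm38 chr7:30458315-30487223, plus strand) encodes nephrin, the immunoglobulin-superfamily adhesion protein that spans the slit. Its FPKM was 6.17, 0.746 and 1.59 in control libraries 1 to 3. It was 0.605, 5.11 and 0.525 with high glucose and 8.98, 13.2 and 0.883 with AGEs. Each group held both a library above 5 and a library below 1 FPKM, so all 3 groups overlapped. On the CPM scale the highest library was 8.38 times the lowest in control, 9.73 times in high glucose and 14.6 times with AGEs. The coefficient of variation was 103%, 126% and 81.4% in these groups, and of 8868 genes with a mean of at least 1000 counts only 0.135%, 0.101% and 0.383% had a larger one. The median coefficient of variation of those genes was 7.99%, 7.29% and 8.78%. The log2 fold change was -0.65 (95% interval -3.21 to 1.91) for high glucose against control, with an adjusted p of 0.699 in edgeR. For AGEs against control it was 1.45 (-1.14 to 4.03, adjusted p 0.646), and for AGEs against high glucose 2.09 (-0.55 to 4.73, adjusted p 0.193). All 3 intervals include 0. Leaving out control library 1 turned the direction for high glucose to 0.64. Without high glucose library 2 the AGEs against high glucose difference was 3.94 with an adjusted p of 0.0408 in edgeR, so that 1 library decided the call.

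Another gene runs against the 3' part of Nphs1. Rps12-ps4 (ENSMUSG00000109509; chr7:30484701-30485097, minus strand), a processed pseudogene copied from the mRNA of the ribosomal protein gene Rps12, is 397 bases long. In the GENCODE M21 annotation it lies in the intron between exons 28 and 29 of the coding transcript, which has 30 exons. It also overlaps 183 bases of exon 1 of a retained-intron transcript of Nphs1, an exon that spans chr7:30484915-30486749. Its 397 bases were identical to the Rps12 transcript apart from 2 gaps, of 15 and 2 bases, that are missing from the pseudogene. The 183 shared bases and the matching stretch of the Rps12 transcript (bases 71 to 270) are shown, 5′ to 3′ on the strand of each gene, because reads from them cannot be placed by sequence in the stretch that is common to both.
Rps12-ps4, chr7:30484915-30485097, minus strand: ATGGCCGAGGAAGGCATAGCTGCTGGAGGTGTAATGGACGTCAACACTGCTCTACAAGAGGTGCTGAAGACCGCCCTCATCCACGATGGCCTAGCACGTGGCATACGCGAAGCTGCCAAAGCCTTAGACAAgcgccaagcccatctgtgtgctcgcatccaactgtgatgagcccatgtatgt
Rps12: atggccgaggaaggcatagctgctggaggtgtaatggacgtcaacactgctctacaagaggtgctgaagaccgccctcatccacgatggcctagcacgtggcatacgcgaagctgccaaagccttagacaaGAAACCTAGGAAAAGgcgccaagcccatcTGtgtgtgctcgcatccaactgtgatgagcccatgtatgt
Capitals in the pseudogene mark the first run of 131 bases without a gap to Rps12, and capitals in Rps12 mark the bases that the pseudogene lacks. The sequences come from the GENCODE M21 transcripts. An antisense gene, Nphs1os, also overlaps Nphs1 by 854 exon bases and had 0 counts in all libraries.

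**Figure D3:**
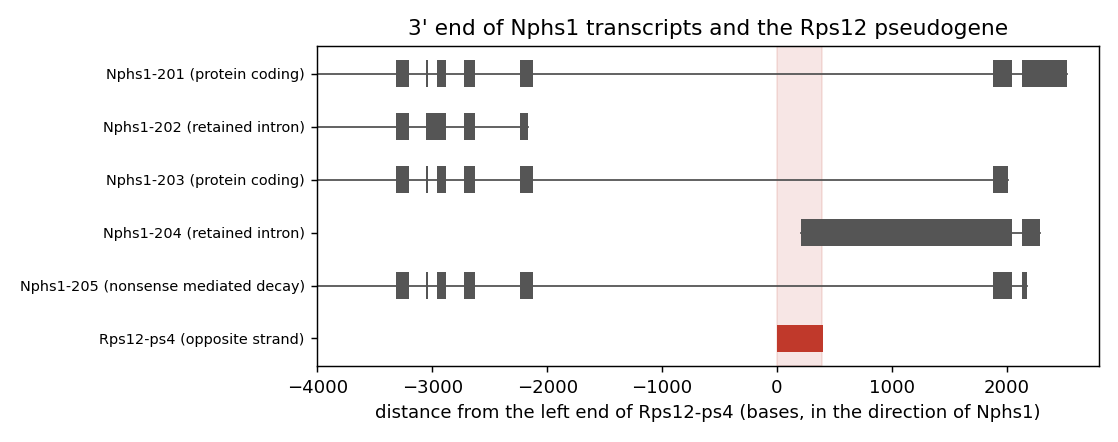
Exons (dark boxes) of the 5 annotated Nphs1 transcripts and the position of Rps12-ps4 (red), drawn to scale by distance in bases from the left end of the pseudogene. The pseudogene lies in an intron of the full coding transcript in the top row, and 183 of its 397 bases lie within an exon of the retained-intron transcript.

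Counts of the overlapping genes were of the same order, 18533 for Nphs1 and 13840 for Rps12-ps4 over all libraries. Rps12-ps4 was at 31.8, 11.9 and 14.9 CPM in control, 22.1, 21.5 and 5.42 with high glucose and 46.1, 43.1 and 11.1 with AGEs. Nphs1 in the same libraries was at 47.5, 5.67 and 12.2, at 4.17, 34.3 and 3.53, and at 68.9, 102 and 6.98 CPM. AGEs libraries 1 and 2 and control library 1 were high for both genes. High glucose library 3 was the lowest for both, and high glucose library 1 was low for Nphs1 only. Over the 9 libraries the log2 CPM of the overlapping pair had a Pearson's r of 0.856 (exact two-sided permutation test, p = 0.00356) and a Spearman's rho of 0.80 (exact permutation p = 0.0138). Without high glucose library 3 and AGEs library 1, the 2 farthest from the median of Rps12-ps4, r was 0.805 (exact permutation p = 0.0353, n = 7). AGEs library 2, the highest for Nphs1, stayed in. The pair was taken for its overlap, but Nphs1 was also correlated with 11926 genes in the search for similar patterns, so these p-values are not adjusted for that search. In it 2 genes had a higher r than Rps12-ps4. The ratio of Nphs1 to Rps12-ps4 counts went from 0.189 in high glucose library 1 to 2.36 in AGEs library 2. Rps12 itself was at 472 to 612 CPM in control, 221 to 260 in high glucose and 512 to 649 with AGEs, without the wide scatter of the overlapping pair. It fell with high glucose by 1.12 on the log2 scale (edgeR adjusted p 0.000102). Nothing in the sources states whether the counting used strand, and without strand, reads of the overlapping exons cannot be told apart. How much of the Nphs1 count comes from the overlap was not tested.

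**Figure D4:**
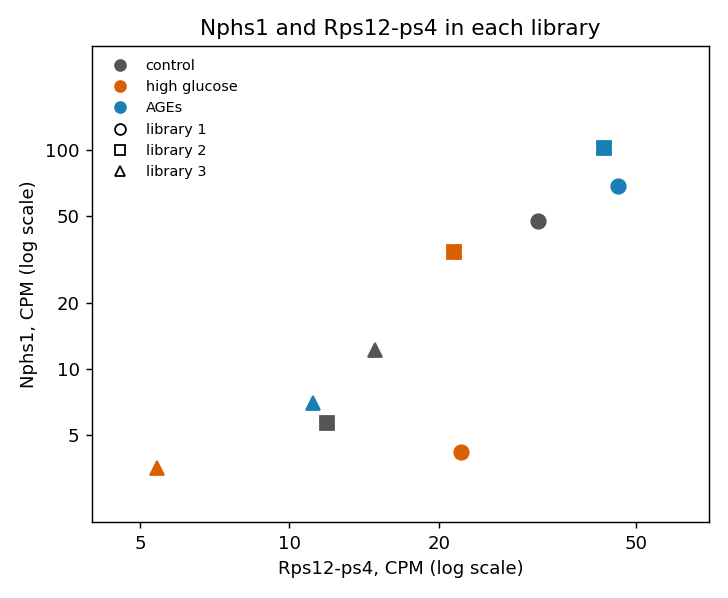
Nphs1 CPM against Rps12-ps4 CPM in the 9 libraries, both axes log scaled and coloured by group. Points rise together from high glucose 3 to AGEs 1 and 2 (Pearson's r 0.856 on log2 CPM), and the groups are intermixed.

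Kirrel (ENSMUSG00000041734; chr3:87078593-87174747, minus strand) encodes NEPH1, which binds nephrin across the slit. It varied little between libraries, at 9.27, 9.87 and 9.09 FPKM in control, 10.9, 11.9 and 13.6 with high glucose and 10.2, 9.02 and 10.9 with AGEs. In CPM it was 80.4, 84.4 and 78.8 in control and 85.1, 90.4 and 103 in high glucose, so all high glucose libraries lay above all controls by a narrow margin. The log2 fold change was 0.19 (SE 0.10, 95% interval -0.03 to 0.41, n = 3 per group), with an adjusted p of 0.157 in edgeR. On log2(FPKM + 1) the same comparison gave 0.33 with an adjusted p of 0.0190 in limma, where the median of all genes was 0.08. For AGEs against control the log2 fold change was 0.11 (-0.11 to 0.34, adjusted p 0.668). Both intervals include 0.

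Cd2ap (ENSMUSG00000061665; chr17:42792951-42876389, minus strand) encodes an adaptor that links nephrin to actin and to endocytosis. It was at 19.7, 22.9 and 5.98 FPKM in control, 20.4, 17.1 and 22.4 with high glucose and 27.1, 23.5 and 19.2 with AGEs. Control library 3 stood apart from the other 8 libraries, which were between 17.1 and 27.1 FPKM. Its control coefficient of variation of 55.1% was exceeded by 1.01% of the 8868 well-counted genes. In control library 3, 21 of these genes (0.237%) lay more than 3 times below both other controls. The same count was 17 for each of the other controls, so few genes shared the low value of Cd2ap in that library. The log2 fold change was 0.13 (-0.73 to 1.0) for high glucose against control, with an adjusted p of 0.823 in edgeR. For AGEs against control it was 0.55 (-0.32 to 1.42, adjusted p 0.597). Without control library 3 these became -0.26 (adjusted p 0.226) and 0.15 (adjusted p 0.856). For AGEs against high glucose, AGEs libraries were at 498, 435 and 364 CPM and high glucose libraries at 337, 276 and 360, so the ranges did not overlap but nearly met. That difference was 0.41 with an adjusted p of 0.440 in the fit of all 9 libraries, and 0.42 with 0.0416 without control library 3.

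Magi2 (ENSMUSG00000040003; chr5:19227036-20704792, plus strand) encodes a PDZ-domain scaffold that binds nephrin from the cytoplasmic side. Its counts were low, at 60, 73 and 34 in control, 33, 98 and 203 with high glucose and 77, 49 and 7 with AGEs. High glucose held both a library below all controls and libraries above all of them, and AGEs library 3 was the lowest of all. The log2 fold change was 0.92 (-0.90 to 2.74) for high glucose against control, with an adjusted p of 0.414 in edgeR. For AGEs against control it was -0.37 (-2.20 to 1.46, adjusted p 0.896), and 0.13 without AGEs library 3.

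Podxl (ENSMUSG00000025608; chr6:31519488-31563981, minus strand) encodes podocalyxin, the negatively charged sialomucin that covers the apical surface of foot processes. Podxl stood at 2.95, 2.86 and 3.29 FPKM in control, 3.20, 4.0 and 3.85 with high glucose and 4.0, 4.12 and 5.06 with AGEs. Its CPM in the controls was 18.8, 18.0 and 20.99, in the high glucose libraries 18.3, 22.3 and 21.4, and in the AGEs libraries 25.5, 26.4 and 33.2. All AGEs libraries lay above all 6 others in CPM, AGEs library 3 highest, while control and high glucose overlapped. Against high glucose, Podxl rose 1.37-fold with AGEs, from 20.7 ± 2.09 to 28.3 ± 4.19 CPM (SD, n = 3 each), with a log2 fold change of 0.46 (95% interval 0.16 to 0.75) and an adjusted p of 0.0218 in edgeR. Without high glucose library 1 the adjusted p was 0.0790, without AGEs library 3 it was 0.0624, and on log2(FPKM + 1) it was 0.173 in limma. Against control, where Podxl was 19.3 ± 1.54 CPM, the difference was 0.56 on the log2 scale (0.26 to 0.86) and did not pass (unadjusted p 0.0022, adjusted p 0.233 in edgeR). DESeq2 gave 0.56 with an adjusted p of 0.0188. For high glucose against control the log2 fold change was 0.10 (-0.20 to 0.40, adjusted p 0.600).

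Ptpro (ENSMUSG00000030223; chr6:137252319-137463233, plus strand) encodes GLEPP1, a receptor tyrosine phosphatase of the apical podocyte membrane. Its 5 counts in 608562012 were too few to test. In the deposited table counts of 4 (9186 entries) were more frequent than counts of 3 (2519) or 5 (1474), so the 4 counts of control library 1 may be 1 fragment.

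Trpc6 (ENSMUSG00000031997; chr9:8544142-8680741, plus strand) encodes a calcium-permeable cation channel that associates with the slit diaphragm. It had 0 of 608562012 counts, which allows a level of up to 0.00493 CPM over all libraries if 3 counts are taken as the limit, for counting error only. Low counts pile up on 4, as given for Ptpro, and if 1 fragment gave 4 counts the limit would be 0.0197 CPM. A change in Trpc6 between groups was therefore not detectable at this depth. Gm32014, on the opposite strand with 1462 shared exon bases, also had 0 counts.

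Plce1 (ENSMUSG00000024998; chr19:38481109-38783588, plus strand) encodes phospholipase C epsilon, a signalling enzyme of developing podocytes. It had 65 counts in all, 8, 0 and 4 in control, 4, 15 and 8 with high glucose and 13, 13 and 0 with AGEs. Control library 2 and AGEs library 3 had none, and no group stood apart from the others. The log2 fold change was 1.16 for high glucose against control (-2.11 to 4.43), with an adjusted p of 0.578 in edgeR, and 0.99 for AGEs against control (adjusted p 0.829). AC111023.1, a processed pseudogene on the opposite strand within Plce1, had 3523 counts and shares 0 exon bases with it, and Gm28991, which shares 805, had 0 counts.

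Thsd7a (ENSMUSG00000032625; chr6:12311610-12749410, minus strand) encodes a podocyte surface protein with thrombospondin repeats, a target of autoantibodies in membranous nephropathy. It was at 0.215, 0.208 and 0.208 FPKM in control, 0.132, 0.216 and 0.275 with high glucose and 0.214, 0.269 and 0.319 with AGEs. The controls were close together, the high glucose libraries spread to both sides of them, and AGEs libraries 2 and 3 were above them. The log2 fold change was -0.20 (-0.80 to 0.40) for high glucose against control, with an adjusted p of 0.599 in edgeR. For AGEs against control it was 0.37 (-0.23 to 0.96, adjusted p 0.604), and against high glucose 0.57 (-0.03 to 1.17, adjusted p 0.120). Without high glucose library 3 the last was 0.82 with an adjusted p of 0.0452 in edgeR.

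The remaining genes annotated over these 9 on the opposite strand shared 0 exon bases with them. Gm37855, within Kirrel, had 213 counts. Gm21009, Gm25335, Gm25761 and Gm43680 within Magi2 and Gm16123, Gm44129 and n-R5s160 within Thsd7a had 0. On the same strand, Gm29254 shared 2516 exon bases with Magi2 and had 8 counts, beside 634 for Magi2.

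Genes that work with these proteins were followed in 7 lists with 95 genes, 74 of them tested. In high glucose against control 31 rose and 9 fell, or 54.1% in all, with a median log2 fold change of 0.30. Of all genes tested, 19.6% rose and 19.7% fell. The parietal, tubular and other marker sums given above were also higher in high glucose, and their part in these counts was not tested. With AGEs against control edgeR called 0 of the 74, where 13 had CPM ranges above control and 5 below (24.3% in all, beside 19.2% of all genes). DESeq2, which called 325 genes in all, called Cd34 of the podocalyxin list higher with AGEs (log2 fold change 0.43, adjusted p 0.00147). Under any alternative at most 1 gene was called in that list, in the nephrin partner list and in the TRPC list, and 0 in the others.

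Among nephrin partners and polarity proteins, 25 of 28 were tested, and 7 rose and 4 fell with high glucose (median 0.04). Ctnnd1, the junction protein p120-catenin, rose from 126 ± 4.56 to 217 ± 10.3 CPM (log2 fold change 0.79, edgeR adjusted p 1.99e-05). Nck2, an adaptor that couples tyrosine-phosphorylated nephrin to actin, rose from 15.1 to 24.6 CPM (0.71). Fyn, the kinase that phosphorylates nephrin, fell from 67.0 ± 1.05 to 46.1 ± 1.24 CPM (-0.54, edgeR adjusted p 0.000446), and Prkcz, an atypical protein kinase C of the polarity complex, fell from 26.3 to 16.4 CPM (-0.68). Kirrel2, a paralogue of Kirrel, had 0 counts and Kirrel3 had 35.

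Of 14 tested CD2AP partners in endocytosis and actin capping, 8 rose and 0 fell with high glucose (median 0.38). Cttn, the actin-binding cortactin, rose from 185 ± 4.14 to 281 ± 6.97 CPM (0.60, edgeR adjusted p 0.000118), and Dnm3, a dynamin, from 0.991 to 3.76 CPM (1.92). All 7 podocalyxin relatives and linkers were tested, and 2 rose and 3 fell, while on log2(FPKM + 1) limma called 4 higher and 0 lower. Slc9a3r1, the NHERF1 linker between podocalyxin and ezrin, rose from 148 to 258 CPM (0.80). Podxl2, a relative of podocalyxin, rose from 7.40 to 11.0 CPM (0.57, edgeR adjusted p 0.0232), a call lost without control library 2 (0.0823), control library 3 (0.0508) or high glucose library 2 (0.0941). Msn, the ezrin relative moesin, fell from 815 to 637 CPM (-0.36), and Cd34, another sialomucin, from 212 to 170 CPM (-0.32), neither of which passed on log2(FPKM + 1) (limma adjusted p 0.0758 and 0.219).

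The other lists held relatives of the signalling members. In the list of TRPC channels and calcineurin-NFAT genes, 11 of 16 were tested and 7 rose with high glucose (median 0.76), among them Nfatc1, a calcium-regulated transcription factor, from 10.8 to 18.8 CPM (0.80), and Rcan1, a calcineurin regulator and NFAT target, from 36.4 to 59.8 CPM (0.72). Trpc2, Trpc4 and Trpc7 had 0 counts like Trpc6, and Trpc5 had 11. Of 9 tested phospholipases C, 4 rose and 0 fell (median 0.31), with Plcd1 from 9.43 ± 0.712 to 31.2 ± 2.81 CPM (1.73, edgeR adjusted p 8.11e-06) and Plcb3 from 101 to 134 CPM (0.40). In the list of THSD7A's relative and other membranous nephropathy antigens, 6 of 12 were tested, 3 rose and 2 fell (median 0.67). Tgfbr3, a TGF-beta co-receptor, rose from 9.92 to 32.0 CPM (1.69), and Ext1, an enzyme of heparan sulfate synthesis, from 68.9 to 164 CPM (1.25). Sema3b, a secreted semaphorin, fell from 15.7 to 7.28 CPM (-1.11), and Htra1, a secreted protease, from 125 to 67.3 CPM (-0.89). Pla2r1, the phospholipase A2 receptor, had 18 counts and Thsd7b had 0. Of 4 R3 receptor phosphatases related to Ptpro, 2 were tested and 0 called (median 0.79), while Ptprh had 14 counts and Ptprq 8.

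**Figure D5:**
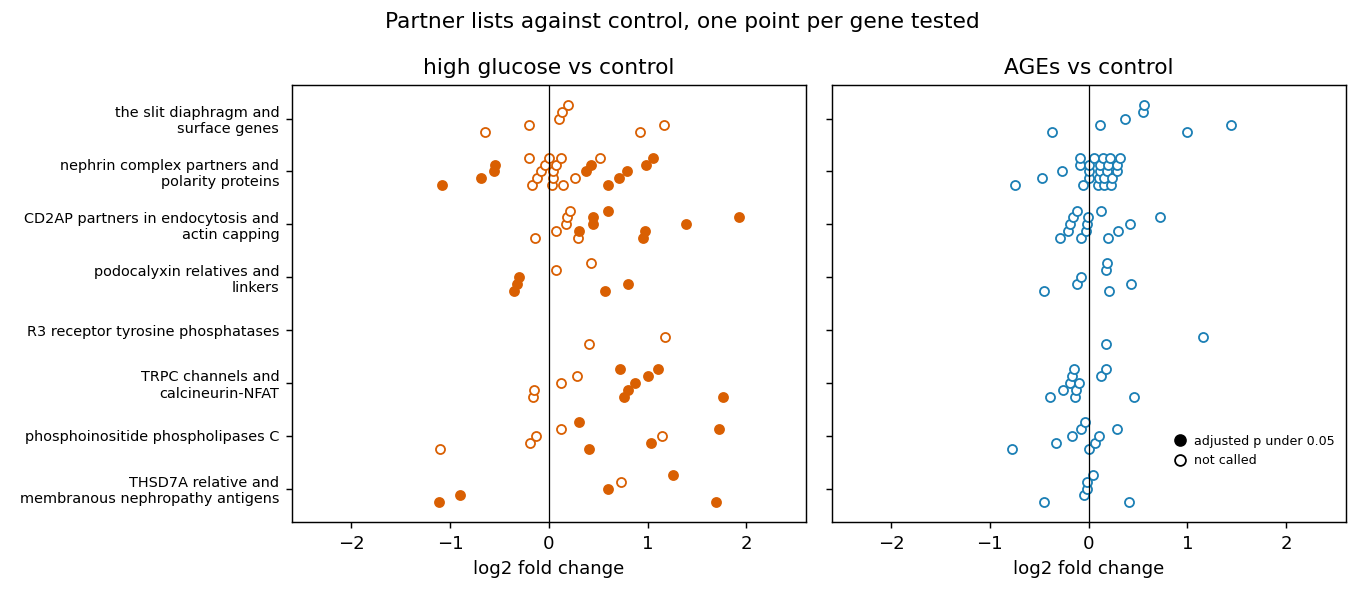
Fitted log2 fold changes of the 7 tested members (top row) and of the tested genes of the 7 lists (a row each), for high glucose against control (left) and AGEs against control (right), with genes at an edgeR adjusted p under 0.05 filled. In the lists, 31 genes were called higher and 9 lower of 74 with high glucose and 0 with AGEs.

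Genes whose log2 CPM followed each member most closely over the 9 libraries were sought among 11926 or 11927 genes with a mean FPKM of at least 1. Shared libraries and group differences enter these correlations, which are descriptions with no test. For Nphs1 they were Znrd1 (Pearson's r 0.875) and Gm8054 (0.875). For Kirrel they were Eif4g3 (0.969) and Fmn1 (0.964), and for Cd2ap they were Slc36a4 (0.980) and Mier1 (0.978). Slc36a4 was at 30.2, 29.3 and 5.65 CPM in the controls, low in the same control library 3 as Cd2ap. Podxl was closest to Axl (0.940) and Gsta3 (0.931), and Gsta3 was at 1.29, 1.51 and 1.24 CPM in control and 9.93, 11.1 and 15.5 with AGEs. Magi2 was closest to Zcchc24 (0.946) and Narf (0.914), Plce1 to Appl2 (0.915) and Gm42715 (0.895), and Thsd7a to Hectd2 (0.962) and Tnc (0.906).

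Promoter windows from 250 bases before to 50 after the start were found for 8 of the 9 genes in RefSeq's GRCm38.p6 table. Cd2ap's window held 41 CG dinucleotides, more than 96.5% of 32851 promoters, and Kirrel's held 28 (above 85.8%). Nphs1 had 6 (43.6%), Ptpro 5 (38.0%), Plce1 8 (51.4%), Trpc6 17 (68.6%) and Thsd7a 19 (71.9%), and the windows of Magi2 had 29 and 4. The median over all promoters was 7. Trpc6, with no counts, had a window above this median, and Nphs1, with counts in all 9 libraries, had one below it. A relation of CG content to level was not tested.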

How the data were processed

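Each library has a column of whole-number counts and a column of FPKM per gene in 1 table deposited by the authors, per the file headers. Cutadapt 1.9, FastQC and GRCm38 are named in the submitters' processing notes. No aligner, counter, annotation release or strand setting is named there or in the labels. Counts were tested with edgeR 4.0.16 in R 4.3.3 (quasi-likelihood, TMM factors 0.935 to 1.10, filterByExpr, 17680 genes, 9 libraries in 1 fit, Benjamini-Hochberg at 0.05), after a check on simulated counts. DESeq2 1.42.0 and limma 3.58.1 on log2(FPKM + 1) or log2(FPKM + 0.1) were alternatives. CPM uses TMM library sizes. Replicate pairs differed by more than sampling noise (chi-square per degree of freedom 47.9 to 110). Named were all members, the genes annotated over them on the opposite strand, up to 2 called genes per direction with the smallest p in each list, and the 2 genes closest to each member (log2 CPM, prior count 2, mean FPKM of at least 1). Gm29254, single marker and list genes at or near 0 counts, Actn4, Synpo, Myo1e and Rps12 were named after their values were seen. The members and lists were chosen with earlier results of these data known.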

Additional observations from a re-analysis of the deposited data

How the results depend on the processing

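The library numbers did not pair the libraries: deviations of same-numbered libraries correlated at -0.07 to 0.08, 0 of 9 pairs over 0.1, and 2 of 9 libraries correlated best with their own number. With a replicate block, AGEs against control called 5 genes in place of 15, and DESeq2 called 325. Members called in high glucose against control numbered 1 (Kirrel) with limma on log2(FPKM + 1) and 1 on log2(FPKM + 0.1), fits that called 43.2% and 42.7% of all genes. In AGEs against control DESeq2 called 1 member, Podxl. With the replicate block Podxl2 was not called in high glucose against control (adjusted p 0.0512). In AGEs against high glucose limma called 0 members on both FPKM scales, beside 7823 and 7774 of 17680 genes, and leaving out 1 library gave 0 to 2. On log2(FPKM + 0.1) the median of all genes moved to 0.17 for high glucose and -0.18 for AGEs against high glucose, and 67.9% and 30.1% of calls were higher, beside 49.9% and 49.4% in edgeR. On log2(FPKM + 1) these shares were 68.6% and 29.6%. The limma fits took the deposited FPKM without TMM factors. In the edgeR fit these factors were 1.07 to 1.10 in high glucose and 0.935 to 0.974 in the other libraries. Their part in the shift was not tested. Directions turned when 1 library was left out for results that were not called. For high glucose against control the ranges were -2.50 to 0.64 for Nphs1, -0.26 to 0.46 for Cd2ap, -0.46 to 0.031 for Thsd7a and -0.55 to 0.29 for Rps12-ps4. For AGEs against control they were -1.08 to 0.13 for Magi2, -0.33 to 0.15 for Dnm3, -0.23 to 0.10 for Ext1, -0.0062 to 0.16 for Tgfbr3 and -0.045 to 0.046 for Htra1. For AGEs against high glucose they were -0.62 to 0.78 for Plce1 and -0.15 to 0.0031 for Kirrel. Depth limits Ptpro, Plce1 and Magi2, whose counts per library were at most 203.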
